A study of Mus musculus with 6 samples.

Results

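Immediate early genes are the genes that a cell transcribes within minutes of a stimulus, without first making new protein. The set described here held 10 of them: Fos, Fosb, Jun, Junb, Egr1, Egr2, Egr3, Arc, Npas4 and Ier2. Members were taken as every probe set of the array annotated to exactly 1 gene symbol from this list, which gave 13 of the 34945 probe sets with 1 symbol. They covered 10 of the 18193 genes measured. The samples were corticothalamic projection neurons, the cortical neurons whose axons end in the thalamus, from C57BL/6 mice at 3 stages with 2 arrays each. Green fluorescent microspheres, which axon ends take up and carry back to the cell body, had been placed in the thalamus at E17.5, P1 or P4. The labelled neurons were sorted by fluorescence from dissociated cortex at E18.5, P3 or P6, and the first stage is called E18 as in the sample names. No treatment and no unstimulated or undissociated control was used here, so the comparisons are between stages. The E18 neurons had carried the label for 1 day when collected and the postnatal neurons for 2 days, so in any comparison with E18 stage and labelling time cannot be told apart. The labels do not state if the 2 arrays per stage stem from different animals or sorting sessions. The p-values therefore rest on array-to-array spread alone, and that spread may be technical.

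Fos, Fosb, Jun and Junb encode basic leucine zipper proteins that pair to form the transcription factor AP-1. Egr1, Egr2 and Egr3 encode zinc finger transcription factors, and Npas4 a transcription factor that neurons induce on calcium entry. Arc encodes a cytoskeleton-associated protein that promotes removal of glutamate receptors from synapses, and Ier2 a small nuclear protein. In cortex these genes are used as marks of recent synaptic activity. Growth factors also induce many of them, and so can warm enzymatic dissociation of tissue, together with heat shock genes.

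The 10 genes did not move together. Fos, Jun and Ier2 were 11.1-fold, 7.67-fold and 8.79-fold lower at P3 than at E18, and 7.15-fold, 5.79-fold and 6.51-fold lower at P6 than at E18. Npas4 was 5.50-fold higher at P6 than at E18, Junb 2.20-fold higher, and 1 of 2 Egr3 probe sets 4.30-fold higher. At E18 Npas4 lay at percentiles 8.28 and 7.45 of the probe sets, well below the lower quartile of the arrays, and the Egr3 probe set near that quartile. Folds set against such levels are understated. Arc was lower at P3 and at P6 stood near its E18 level. Egr1 differed by at most 0.10 log2 units between stage means in the deposited values. The comparisons of P3 and of P6 with E18 share the E18 arrays and are not independent. In these bulk samples fewer cells of a type and less RNA per cell cannot be told apart.

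**Figure D1:**
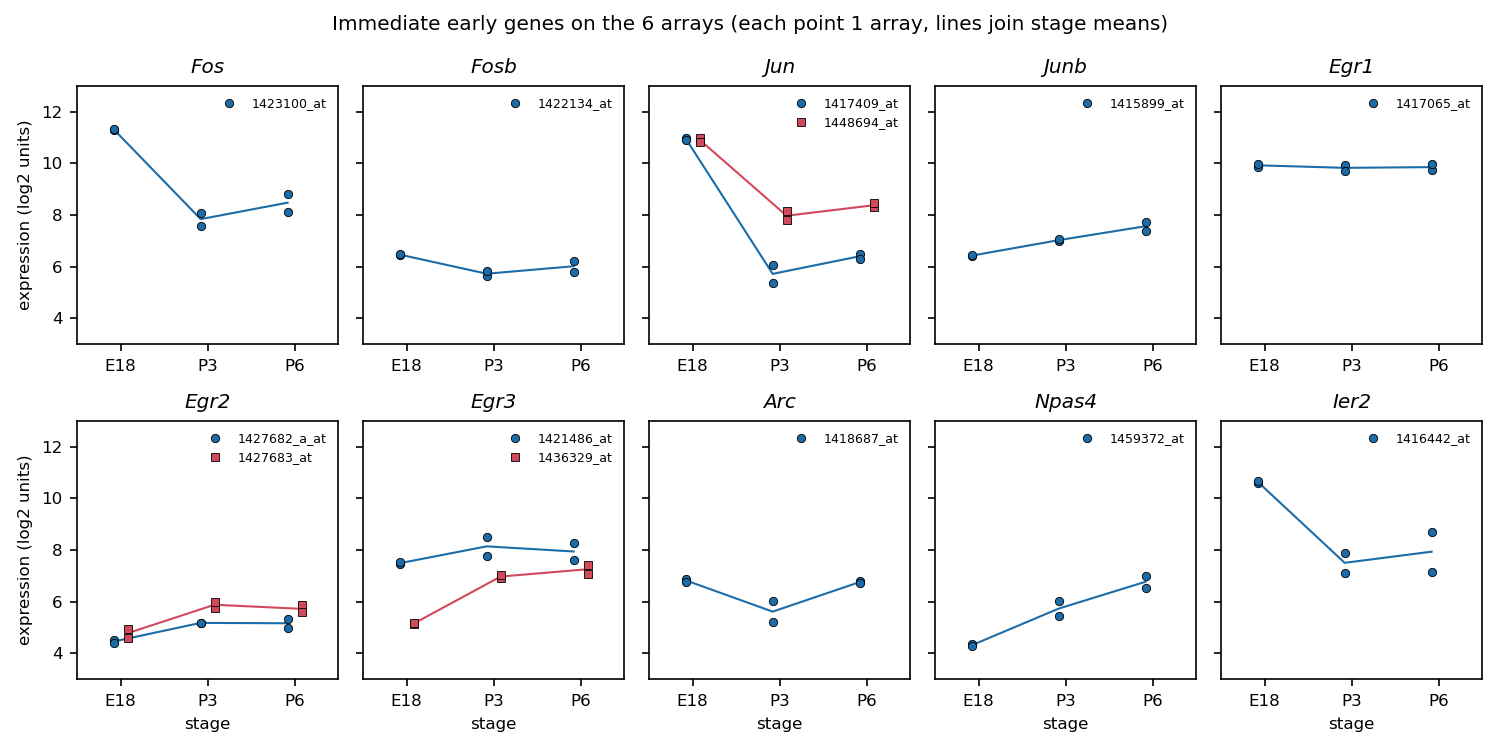
Level of every immediate early gene probe set on each array. The vertical axis is expression in log2 units as deposited, the horizontal axis the stage, each point 1 of 2 arrays and each line joins stage means, with 1 panel per gene and 1 colour per probe set. Fos, both Jun probe sets and Ier2 stand above 10 log2 units at E18 and below 9 at P3 and P6, while Egr1 stays between 9.72 and 9.99.

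Levels are the log2 values that the authors deposited for each probe set. Stage differences were tested with limma over all genes. For each gene the brightest probe set on average was used, and the dimmest 25% of genes were not tested. Calls required an adjusted p below 0.05. Of the 10 members, 8 passed that filter, and Egr2 and Npas4 did not. A second limma fit over all 34945 probe sets, with no filter, gave values for Egr2, Npas4 and the second probe sets of Jun and Egr3.

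Between E18 and P3, 5 of the 8 members tested were called lower and 1 higher, against 25.7% and 15.5% of the 13645 genes tested. Between E18 and P6, 3 were called lower and 1 higher, against 16.9% and 14.8%. In the fit over probe sets, 6 of 13 were lower and 4 higher at P3, against backgrounds of 17.1% and 11.5%. At P6, 4 were lower and 5 higher than at E18, against 12.4% and 8.76%. The median change of the tested members was -0.98 log2 units for P3 minus E18 and -0.26 for P6 minus E18, while the medians of all genes tested were -0.13 and 0.08. Over all genes 2116 were higher and 3513 lower at P3 than at E18. With quantile normalization these were 3075 and 2751, with a median of 0.12, and 6 members were again called. Fewer of the 13 probe sets were called at P3 with the E18 arrays averaged or with E18 replicate 1 or 2 left out. Calls over all probe sets fell as well in these fits.

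**Figure D2:**
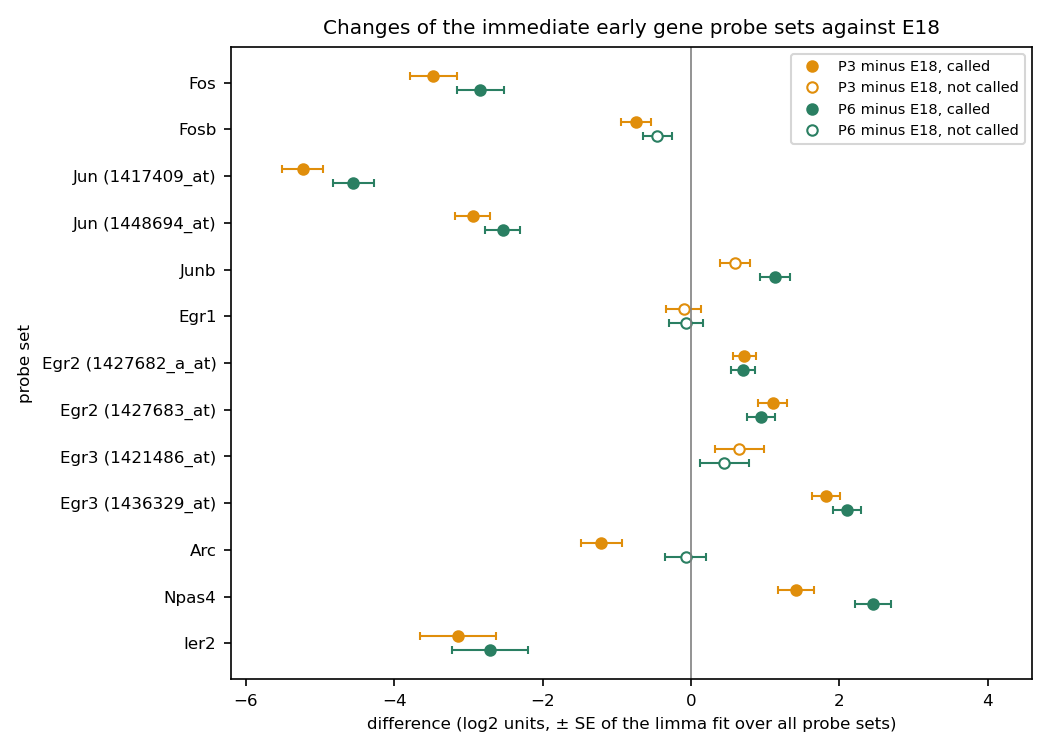
Difference of every immediate early gene probe set from E18, from the limma fit over all 34945 probe sets. Points are log2 differences of stage means with 2 arrays each, bars are SE, filled points were called at an adjusted p below 0.05, and P3 lies above P6 in each row. Fos, both Jun probe sets and Ier2 lie at -2.53 or below. Npas4, Junb and both probe sets each of Egr2 and Egr3 lie above 0 at both stages, though not all of these were called.

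Among the AP-1 genes, Fos stood at 11.30 and 11.34 log2 units on the E18 arrays, 7.59 and 8.10 on the P3 arrays and 8.13 and 8.84 on the P6 arrays. Both E18 arrays were above all 4 later arrays, and both P6 arrays were above both P3 arrays. The P3 minus E18 difference was -3.47 ± 0.32 log2 units (SE, limma adjusted p = 0.000245), and the P6 minus E18 difference was -2.84 ± 0.32 (adjusted p = 0.000585). Jun encodes the main partner of Fos in AP-1. Its probe set 1448694_at read 10.99 and 10.85 in the E18 pair, 8.14 and 7.81 in the P3 pair and 8.31 and 8.46 in the P6 pair. Its second probe set, 1417409_at, read 10.99 and 10.92 on the E18 arrays, 5.39 and 6.07 on the P3 arrays and 6.51 and 6.31 on the P6 arrays. Neither probe set overlapped between E18 and the later stages, and the estimated fall was larger on the second, a difference that was not tested. For P3 minus E18 the first gave -2.94 ± 0.25 (limma adjusted p = 0.000154), and the second gave -5.23 ± 0.28 in the fit over probe sets (adjusted p = 6.79e-05). Its P3 arrays lay at percentiles 23.0 and 34.5 of all probe sets, close to background, so no exact fold is given for it. For P6 minus E18 the values were -2.53 ± 0.25 (adjusted p = 0.000294) and -4.55 ± 0.28 (adjusted p = 0.000113).

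Fosb, the closest relative of Fos in the set, stood at 6.45 and 6.49 in the E18 pair, 5.64 and 5.82 in the P3 pair and 5.80 and 6.24 in the P6 pair. Its E18 arrays were also the highest, by a much smaller margin than those of Fos. The difference was -0.74 ± 0.19 log2 units for P3 minus E18 (limma adjusted p = 0.0185), a call lost at adjusted p = 0.103 when the E18 arrays were averaged, 0.0915 and 0.114 when E18 replicate 1 or 2 was left out, and 0.0561 when P3 replicate 1 was. With the level of the hybridization controls, transcripts spiked into each hybridization, as covariate it was -0.43 (limma adjusted p = 0.168). For P6 minus E18 it was -0.45 ± 0.19 (adjusted p = 0.108) and was not called, except without P6 replicate 2 (-0.67, adjusted p = 0.0397).

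Junb went the other way. This AP-1 member, a weaker activator than Jun, stood at 6.42 and 6.44 on the E18 arrays, 6.999 and 7.06 on the P3 arrays and 7.40 and 7.74 on the P6 arrays. The 3 stages did not overlap, and the order was E18 lowest and P6 highest. Junb was higher by 1.14 ± 0.19 log2 units at P6 than at E18 (limma adjusted p = 0.00368). For P3 minus E18 it was 0.60 ± 0.19 (adjusted p = 0.0411), a call close to the threshold. That call was lost in the fit over probe sets (adjusted p = 0.0671), with the E18 arrays averaged (0.263), with E18 replicate 1 or 2 left out (0.261 and 0.263), without P3 replicate 2 (0.0857), with array weights (0.0891) and without an intensity trend (0.0552).

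Ier2, which was high at E18 like Fos and Jun, stood at 10.61 and 10.66 there, 7.88 and 7.12 on the P3 arrays and 7.17 and 8.70 on the P6 arrays. E18 was above all later arrays, while P3 and P6 overlapped and the P6 arrays lay far apart. The difference was -3.14 ± 0.50 log2 units for P3 minus E18 (limma adjusted p = 0.00296) and -2.70 ± 0.50 for P6 minus E18 (adjusted p = 0.00559). The P6 minus E18 difference was -1.94 without P6 replicate 1 and -3.47 without P6 replicate 2. With the level of the hybridization controls as covariate it was -1.75 and not called (adjusted p = 0.0573).

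Of the zinc finger genes, Egr1 stood at 9.87 and 9.99 in the E18 pair, 9.94 and 9.72 in the P3 pair and 9.74 and 9.98 in the P6 pair. All 3 stages overlapped. The difference was -0.10 ± 0.24 log2 units for P3 minus E18 (limma adjusted p = 0.755) and -0.07 ± 0.24 for P6 minus E18 (adjusted p = 0.841), and with quantile normalization the signs turned to 0.36 and 0.07, again not called. Among all probe sets of an array, Egr1 lay between percentiles 87.3 and 91.5 on the 6 arrays.

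Egr3 gave different answers from its 2 probe sets. The brighter one, 1421486_at, read 7.45 and 7.53 on the E18 arrays, 7.78 and 8.50 on the P3 arrays and 8.26 and 7.62 on the P6 arrays, and was not called for P3 minus E18 (0.65 ± 0.32, limma adjusted p = 0.134) or P6 minus E18 (0.45 ± 0.32, adjusted p = 0.309). Its P3 minus E18 difference was 1.01 and called without P3 replicate 1 (limma adjusted p = 0.0412), and 0.29 without P3 replicate 2. The other, 1436329_at, read 5.14 and 5.16 in the E18 pair, 6.93 and 7.01 in the P3 pair and 7.09 and 7.42 in the P6 pair. In the fit over probe sets it was higher by 1.82 ± 0.19 at P3 (adjusted p = 0.000942) and by 2.11 ± 0.19 at P6 (adjusted p = 0.000504). Later arrays were above the E18 arrays on both probe sets. The mean of both probe sets was called higher at P3 (1.24, limma adjusted p = 0.00231) and at P6 (1.28, adjusted p = 0.00184).

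Egr2 was dim, with both of its probe sets below the lower quartiles of the E18 arrays, 5.16 and 5.15. Probe set 1427683_at read 4.61 and 4.95 on the E18 arrays, 5.76 and 6.00 on the P3 arrays and 5.85 and 5.59 on the P6 arrays. Probe set 1427682_a_at read 4.53 and 4.39 in the E18 pair, 5.17 and 5.18 in the P3 pair and 5.34 and 4.99 in the P6 pair. Both were higher at P3 in the fit over probe sets, by 1.10 ± 0.19 (adjusted p = 0.00738) and 0.72 ± 0.16 (adjusted p = 0.0178). At P6 they were higher by 0.94 ± 0.19 (adjusted p = 0.0139) and 0.70 ± 0.16 (adjusted p = 0.0206). Averaging the E18 arrays ended all 4 calls, at limma adjusted p of 0.0502, 0.129, 0.0862 and 0.147, as did leaving out E18 replicate 1. Array values this close to background understate fold changes.

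Npas4 was among the dimmest probe sets at E18 and not at P6. It read 4.35 and 4.27 on the E18 arrays, 6.01 and 5.45 on the P3 arrays and 6.53 and 7.01 on the P6 arrays, which put it at percentiles 8.28 and 7.45 of the probe sets at E18 and 45.5 and 53.7 at P6. The 3 stages did not overlap. In the fit over probe sets it was higher by 1.42 ± 0.24 log2 units at P3 than at E18 (adjusted p = 0.00737) and by 2.46 ± 0.24 at P6 than at E18 (adjusted p = 0.00075). The P3 call was lost without E18 replicate 2 (adjusted p = 0.0538).

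Arc was called lower at P3 and overlapped its E18 level again at P6. It read 6.89 and 6.76 in the E18 pair, 6.01 and 5.21 in the P3 pair and 6.80 and 6.72 in the P6 pair. Both P3 arrays were below all others, and the E18 and P6 arrays overlapped. The difference was -1.21 ± 0.26 log2 units for P3 minus E18 (limma adjusted p = 0.0103) and -0.07 ± 0.26 for P6 minus E18 (adjusted p = 0.86). The P3 call was lost with the hybridization control level (-1.30, adjusted p = 0.0966) or the 18S level (-0.98, adjusted p = 0.0596) as a covariate. For P6 minus P3 it was 1.14 ± 0.26 and not called (limma adjusted p = 0.12). P3 replicate 2 was the lowest array: without it the P6 minus P3 difference was 0.74, and without P3 replicate 1 it was 1.55 and called (adjusted p = 0.0132), in a fit that called 3330 of 13645 genes higher and 592 lower.

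The upstream sequences of members that fell and members that rose are shown to let the letters before the start sites be compared. Such sequences from RefSeq (GRCm38.p6) were searched for 6 members, Fos, Fosb, Jun, Junb, Egr2 and Npas4. The search left out Egr1, Egr3, Arc and Ier2, so nothing is said on their start sites. The 250 bases before the start are given 5′ to 3′ for Fos (chr12:85473640-85473889, plus strand), Jun (chr4:95052223-95052472, minus strand), the third of 5 listed starts of Egr2 (chr10:67537619-67537868, plus strand) and Npas4 (chr19:4989972-4990221, minus strand). Capitals mark any of the motifs searched on both strands.
Fos: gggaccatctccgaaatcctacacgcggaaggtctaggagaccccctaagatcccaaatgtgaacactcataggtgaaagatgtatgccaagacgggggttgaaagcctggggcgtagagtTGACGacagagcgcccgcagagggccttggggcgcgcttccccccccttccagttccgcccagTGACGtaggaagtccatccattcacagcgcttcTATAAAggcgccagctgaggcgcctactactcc
Jun: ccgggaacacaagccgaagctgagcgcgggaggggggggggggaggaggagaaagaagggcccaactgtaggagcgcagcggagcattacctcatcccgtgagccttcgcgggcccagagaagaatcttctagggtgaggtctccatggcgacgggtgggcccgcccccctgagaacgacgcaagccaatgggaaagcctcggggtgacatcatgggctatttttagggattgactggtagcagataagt
Egr2: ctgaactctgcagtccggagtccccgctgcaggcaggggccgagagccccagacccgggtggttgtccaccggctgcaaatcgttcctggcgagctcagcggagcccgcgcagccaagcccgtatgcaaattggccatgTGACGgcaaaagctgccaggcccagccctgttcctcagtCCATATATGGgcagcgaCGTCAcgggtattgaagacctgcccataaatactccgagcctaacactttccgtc
Npas4: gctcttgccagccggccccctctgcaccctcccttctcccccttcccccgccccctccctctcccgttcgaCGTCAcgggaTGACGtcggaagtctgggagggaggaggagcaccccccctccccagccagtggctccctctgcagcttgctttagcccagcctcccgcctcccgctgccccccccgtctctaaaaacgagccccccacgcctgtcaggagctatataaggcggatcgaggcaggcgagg
The motifs searched were the cyclic AMP response element (TGACGTCA), its core (TGACG, which the full element contains), the AP-1 site (TGANTCA), the serum response element by name, the TATA box (TATAAA) and the Egr site (GCGNGGGCG). Fos held 2 TGACG cores, at 129 to 125 and 66 to 62 bases before the start, and a TATA box at 33 to 28. Npas4 held 2 TGACG cores, at 179 to 175 and 169 to 165 bases. The Egr2 region shown held 2 TGACG cores and a serum response element at 72 to 63 bases. The other listed starts of Egr2 differed. Its region chr10:67535249-67535498 held no match, and chr10:67537316-67537565 held a serum response element but no TGACG core. Its regions chr10:67537620-67537869 and chr10:67537680-67537929 overlap the one shown and also held 2 TGACG cores and a serum response element. Jun held no match in this window. Of all 32851 such RefSeq regions, 17.8% held a TGACG core, 1.55% the full element, 1.47% a serum response element, 12.4% the TATA box, 6.75% an AP-1 site and 4.70% an Egr site. Of the members searched but not printed, Fosb held a TGACG core at 60 to 56 bases before the start and an Egr site at 50 to 42. Junb held a TGACG core at 106 to 102 bases. The TGACG core was thus present both in members that fell, such as Fos, and in members that rose, such as Npas4. A match describes letters only and shows no bound factor.

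Between P3 and P6 no member was called by limma in either fit, where 0 of 13645 genes and 0 of 34945 probe sets were called. Calls over all genes and probe sets appeared when P3 replicate 1 was left out, a fit with P3 replicate 2 as the only P3 array. The 18S level of P3 replicate 2 was 14.22 log2 units, against 11.83 on P3 replicate 1 and 13.92 and 11.33 on the P6 arrays. Its Actb difference between the 3′ and 5′ ends was the largest, 1.76 against 1.19 on P3 replicate 1. At an unadjusted p under 0.05 there were 2 of the 8 tested members, Arc and Junb, and 2696 of the 13645 genes, a like share. Fos was 0.64 ± 0.32 log2 units higher at P6 than at P3 (adjusted p = 0.317), Junb 0.54 ± 0.19 (adjusted p = 0.194) and Jun 0.41 ± 0.25 (adjusted p = 0.391). Npas4 differed by 1.04 ± 0.24 in the fit over probe sets (adjusted p = 0.198), or 1.32 and called without P3 replicate 1 (adjusted p = 0.0285), where calls were common over all probe sets. The P6 arrays lay above the P3 arrays without overlap for 7 of the 13 probe sets, those of Fos, Junb, Arc and Npas4, both of Jun and 1 of Egr3, and below for 0, against 21.9% and 18.4% of all probe sets.

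Whether the step from P3 to P6 differed from the step from E18 to P3 was tested directly, as the later step minus the earlier one. It was positive and called for 4 of 8 members, against 16.7% of all genes tested, and negative for 0, against 5.28%. Over probe sets it was called positive for 5 and negative for 1 of 13, against 8.87% and 3.26%. The negative one was Egr3 probe set 1436329_at (-1.54 ± 0.33, limma adjusted p = 0.0312), a call lost in 7 of 13 alternatives, among them array weights (0.0918), the E18 arrays averaged (0.173) and leaving out P3 replicate 2 (0.0863). Fewer than these 6 calls remained with the E18 arrays averaged, without E18 replicate 1 or 2, or without P3 replicate 2. Calls over all probe sets fell as well. The comparisons share arrays, since both steps use the P3 arrays. It was 4.11 ± 0.55 log2 units for Fos (limma adjusted p = 0.00393), 3.34 ± 0.42 for Jun (adjusted p = 0.00311), 3.57 ± 0.86 for Ier2 (adjusted p = 0.0288) and 2.36 ± 0.45 for Arc (adjusted p = 0.0136). Ier2 lost this call without P3 replicate 2 (2.80, adjusted p = 0.176), and Arc without P6 replicate 1 or 2 (adjusted p = 0.054 and 0.0569). Junb (-0.06 ± 0.33, adjusted p = 0.903) and Egr1 (0.13 ± 0.42, adjusted p = 0.834) were not called.

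Other genes that respond within the first hours of a stimulus were called in both directions, at shares not far from those of all genes at P3. Of 35 such genes, 33 were tested, and 7 rose and 9 fell at P3 against E18, while 9 rose and 7 fell at P6 against E18, with medians of 0.01 and 0.24 log2 units. Over all genes 15.5% rose and 25.7% fell at P3, and 14.8% rose and 16.9% fell at P6. Fewer fell at P3 and fewer rose at P6 with the E18 arrays averaged or with either left out, as was so over all genes. The phosphatase gene Dusp6, which switches off ERK, was 7.96-fold higher at P3 than at E18 (SE 0.22 log2 units, limma adjusted p = 8.66e-05) and 2.66-fold higher at P6. The related phosphatase gene Dusp4 was 9.21-fold lower at P3 (SE 0.37, adjusted p = 0.000712). Btg2, an antiproliferative gene, was 5.70-fold lower at P3 (SE 0.21, adjusted p = 0.000145) and 5.18-fold lower at P6. The kinase gene Plk2, which limits synaptic strength after activity, had a level 5.88-fold above E18 at P3 (SE 0.28, adjusted p = 0.000534) and 6.15-fold above it at P6. The orphan nuclear receptor gene Nr4a3 was 6.46-fold higher at P6 than at E18 (SE 0.29, adjusted p = 0.000476), and Tiparp, an ADP-ribosyltransferase gene, 5.61-fold lower (SE 0.30, adjusted p = 0.000749). Over the alternatives the P6 minus E18 difference spanned 1.11 to 2.80 log2 units for Plk2 and 1.32 to 2.95 for Nr4a3.

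**Figure D3:**
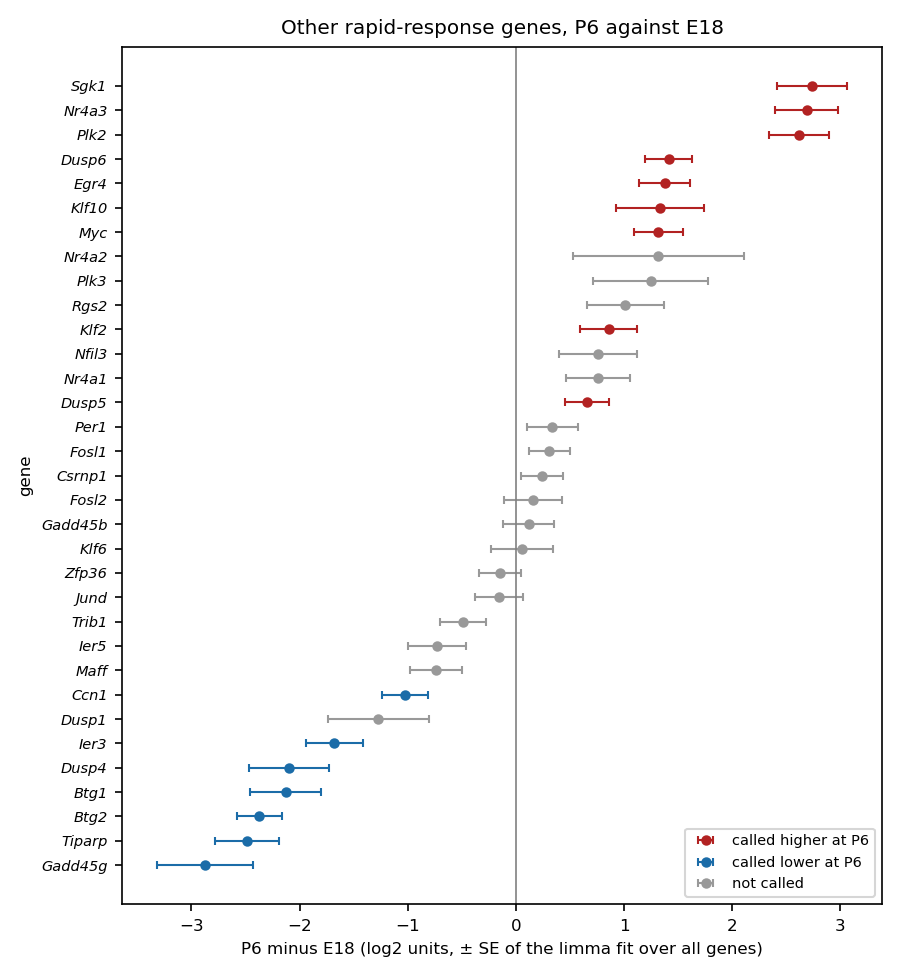
P6 minus E18 differences of the 33 other rapid-response genes tested. The horizontal axis is the difference in log2 units, bars are SE from the limma fit over all genes, and colour gives the call. The genes spread to both sides, with 9 called higher, 7 called lower and the rest not called.

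Genes that neurons induce later after activity, and genes for proteins that carry the signal to immediate early promoters, also held members of both directions, to be read against the same shares of all genes. Of 12 late-response genes tested, 4 rose and 1 fell at each later stage against E18, with medians of 0.60 and 0.63 log2 units. At P6 these included Rasgrp1, an activator of Ras (16.2-fold higher than at E18, SE 0.28 log2 units, limma adjusted p = 7.38e-05), the secreted peptide precursor gene Vgf (8.78-fold higher, SE 0.40, adjusted p = 0.00104) and the synaptic scaffold gene Homer1 (3.21-fold higher, SE 0.25, adjusted p = 0.002). Nrn1, which encodes a growth-promoting surface protein, was 9.02-fold lower (SE 0.25, adjusted p = 0.00011). Of 18 upstream genes tested, 3 rose and 3 fell at P3, and 6 rose and 2 fell at P6. With the E18 arrays averaged or either left out, as over all genes, fewer of them rose and fewer fell at P6. Without P3 replicate 1 more of these genes were called lower at both later stages, as were more of all genes tested. The median P3 minus E18 difference over all genes was then -0.29 log2 units, against -0.13. The calcium-dependent kinase gene Camk4 was 17.2-fold higher at P6 (SE 0.23, adjusted p = 2.86e-05) and the activity-responsive factor gene Mef2c 3.30-fold higher (SE 0.24, adjusted p = 0.0015). Elk3, which encodes a partner of serum response factor, was 6.04-fold lower (SE 0.27, adjusted p = 0.000406). The sizes depended on the processing. Over the alternatives the P6 minus E18 difference spanned 1.92 to 4.22 log2 units for Camk4, 1.89 to 4.19 for Rasgrp1 and -2.74 to -1.38 for Elk3.

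Of the heat shock and stress genes, none was called higher at a later stage in the fit of all 6 arrays, and the number called lower at P6 was near the share over all genes. Of 13 heat shock genes tested, 5 fell and 0 rose at P3 against E18, with a median of -0.60 log2 units, and 2 fell at P6, where 25.7% and 16.9% of all genes fell. The number that fell at P3 was smaller with the E18 arrays averaged or either left out, and larger without P3 replicate 1. At P6 the number was larger without P3 replicate 1 or 2 and smaller without E18 replicate 1. The numbers over all genes shifted in the same directions. Stress-inducible Hspa1b read 8.88 and 9.17 on the E18 arrays, 6.35 and 6.51 on the P3 arrays and 6.66 and 7.10 on the P6 arrays, and was 6.03-fold lower at P3 (SE 0.23, limma adjusted p = 0.000211). Of 14 stress-response genes tested, 4 fell and 0 rose at P3, and 3 fell at P6. More fell at both stages without P3 replicate 1, and at P6 without P3 replicate 2, as was so over all genes. The metallothionein gene Mt2 read 12.38 and 12.43 in the E18 pair, 8.14 and 7.48 in the P3 pair and 8.20 and 10.31 in the P6 pair, and was 24.1-fold lower at P3 (SE 0.62, adjusted p = 0.00145). The summed linear signal of all 13 heat shock genes was 37774 and 38925 on the E18 arrays, 37385 and 30049 on the P3 arrays and 36963 and 31083 on the P6 arrays. For the 15 stress-response genes measured it was 20702 and 21274 in the E18 pair, 9877 and 7263 in the P3 pair and 8749 and 11917 in the P6 pair. Among 8 cytokine and chemokine genes that microglia induce during isolation, 3 passed the filter, and Tnf was called higher at P3 by 0.63 log2 units (adjusted p = 0.0373), or 0.216 with the E18 arrays averaged. The part of dissociation stress in the levels of Fos, Jun and Ier2 was not tested.

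**Figure D4:**
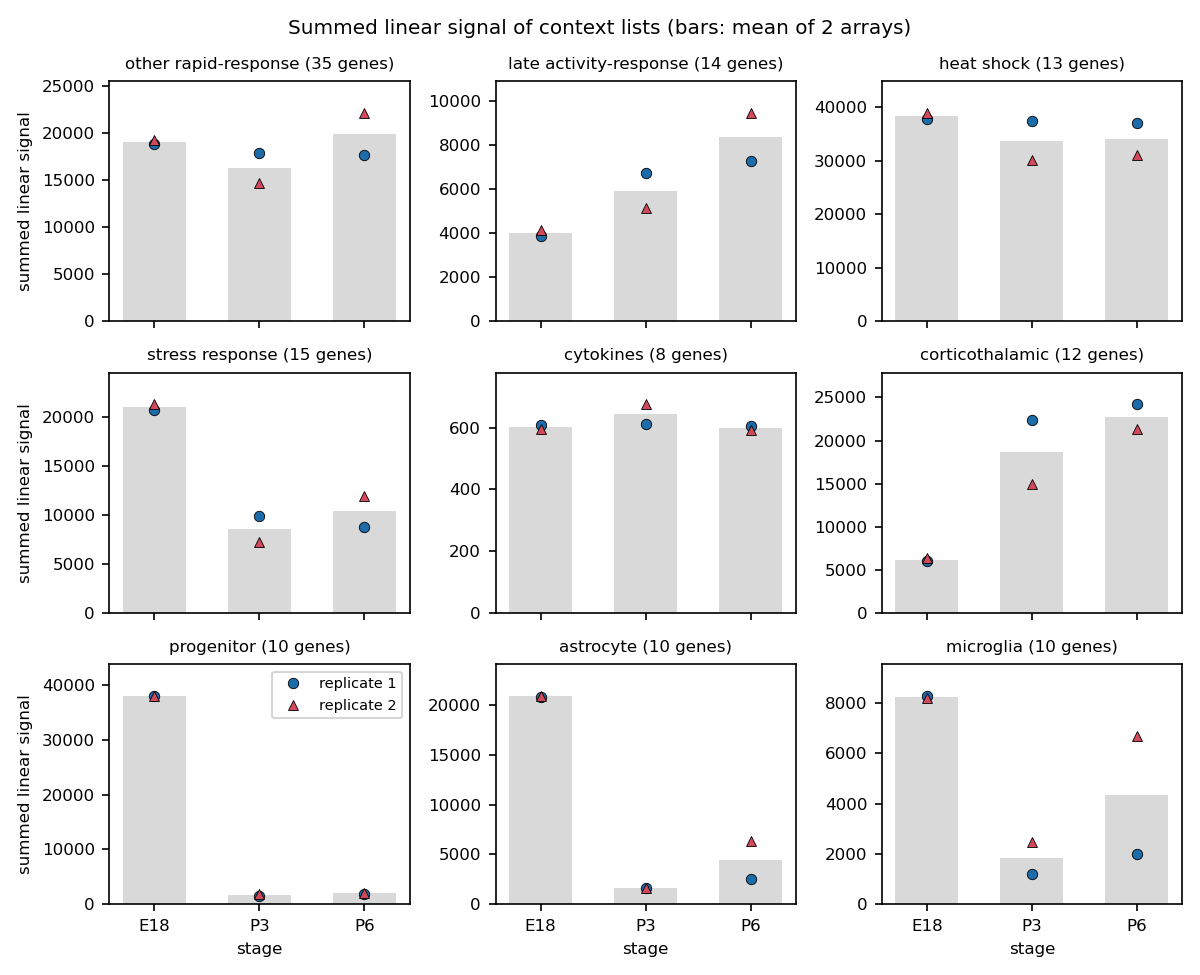
Summed linear signal of 9 gene lists on each array. The vertical axis is the sum of 2 to the power of the deposited log2 value over the list's measured genes, with a scale for each panel starting at 0, bars are means of 2 arrays and points are arrays. Stress-response, progenitor, astrocyte and microglia signals are highest at E18, and corticothalamic and late activity-response signals are lowest there.

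Markers of other cell types moved over the same stages. Of 10 progenitor genes 8 fell and 0 rose at each later stage against E18, with a summed linear signal of 38082 and 38014 on the E18 arrays, 1449 and 1910 on the P3 arrays and 1853 and 2105 on the P6 arrays. Of 10 astrocyte genes 6 fell at each later stage and 1 rose at P3, and their sum was 20793 and 20970 in the E18 pair, 1614 and 1658 in the P3 pair and 2495 and 6316 in the P6 pair. For 10 microglia genes, of which 7 of 9 tested fell at P3 and 0 at P6 (4 at P3 without P3 replicate 1, 7 at P6 without P6 replicate 2), it was 8310 and 8211 on the E18 arrays, 1196 and 2491 on the P3 arrays and 1985 and 6716 on the P6 arrays. P6 replicate 2 was thus the later array with the most microglia and astrocyte signal. Fos, Fosb, Ier2, Junb, Egr1, Npas4, Jun probe set 1448694_at and Egr3 probe set 1436329_at were also highest there among the later arrays, as was Mt2. Arc, both Egr2 probe sets, Jun probe set 1417409_at and Egr3 probe set 1421486_at were not. Members that fell and members that rose were thus among those highest on that array. Its values also had the widest spread among the later arrays (SD 2.10 log2 units, against 1.85 to 2.05). The share of all probe sets highest there was not counted, so no link to other cell types is read from this. No marker gene had a value of 0, since the array gives every probe set a level. Of 12 corticothalamic genes 10 rose and 1 fell at each later stage, with a sum of 5988 and 6341 in the E18 pair, 22440 and 14967 in the P3 pair and 24224 and 21325 in the P6 pair. The part of other cell types in the changes of the members was not tested.

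The E18 arrays were the closest pair, with 0 probe sets more than 2-fold apart, against 3242 at P3 and 1489 at P6. The Actb signal was higher at the 3′ than at the 5′ end by 0.56 to 0.58 log2 units at E18, 1.19 to 1.76 at P3 and 0.82 to 1.06 at P6. Hybridization controls averaged 9.25 to 9.59 log2 units at E18, 11.6 to 11.7 at P3, and 9.85 to 13.01 at P6, with P6 replicate 2 at the low end. With the control level as a covariate in the fit over genes, Fos (-2.96 log2 units) and Jun (-2.85) were still called lower at P3. Ier2 was called there close to the threshold (-2.08, limma adjusted p = 0.0457). In the fit over probe sets with that covariate, the second Jun probe set was called lower at -5.36.

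Genes with the most similar profile were sought over the 6 arrays by Pearson correlation, a description of 6 points that share 3 stages. For Fos they were Slc38a3 (0.999), Tsc22d4 (0.999) and Srsf4 (0.999), and 916 of the genes tested exceeded 0.95. For Arc they were Taf1c (0.999), Chmp1a (0.997) and Dennd1a (0.997), with 395 genes over 0.95. For Egr1, whose whole range was 0.27 log2 units, they were Utp23 (0.970), Orc6 (0.966) and Zfp932 (0.964), with 15 genes over 0.95.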

How the data were processed

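Cortical neurons labelled from the thalamus were sorted at 3 stages, and amplified, biotin-labelled RNA was hybridized to Affymetrix arrays, 2 per stage, per the labels' protocols. The authors deposited log2 expression values for each probe set. RMA is the tool that the submitters' processing notes name for them. Whether all arrays were normalized together is not given in the sources used here. Of 45101 probe sets, 34945 had 1 gene symbol, 932 several and 9160 none, and 64 were controls. The number of arrays limits the precision.

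Stages were compared with limma 3.58.1 in R 4.3.3 (lmFit, eBayes with an intensity trend) on all 6 arrays, with p-values adjusted by Benjamini-Hochberg over all genes or probe sets. The fit was tested on simulated data, with 200 genes changed in each of 10 runs. For P3 minus E18 it recovered 60.7% of 4-fold and 7.1% of 2-fold changes, and 2.61% of calls were false. The data differed from this setting, with 2116 genes called higher and 3513 lower. The simulation also gave each gene the same spread at all stages, while the E18 arrays agreed most closely. These shares thus may not hold for the data. A missing call still does not show that a gene was unchanged. The alternatives were normalization, filters, probe set choice, trend, array weights, fewer arrays and covariates. Every member is named, with up to 4 genes of smallest p per list and comparison. Members and lists were chosen with earlier results of these data known. The arrays were not treated as paired by replicate number in the main fit. The correlations of replicate differences between stages were -0.17, 0.05 and -0.24, which cannot exclude a pairing or a batch shared by some genes.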

Additional observations from a re-analysis of the deposited data

How the results depend on the processing

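Fos and Jun kept their direction and their calls for P3 minus E18 in all 17 alternatives, at -3.73 to -2.96 log2 units for Fos. Members called for P3 minus E18 numbered 3 of 5 tested with the lowest 50% of genes left out, against 6 of 8. Of all 9097 genes tested in that fit, 1284 were called higher and 2743 lower. Fosb, Junb and Arc were not tested there, and Fos, Jun and Ier2 kept their calls. For P6 minus P3 leaving out 1 array gave 0 to 1 called members and 0 to 2 called probe sets. The unequal change was called for 2 members with the level of hybridization controls as covariate, against 4. Over all genes it was then called positive for 785 and negative for 198, against 2280 and 720. For P3 minus E18, 6 of 13 probe sets were called with the E18 arrays averaged and 5 with that covariate, against 10, and 6 to 11 with 1 array left out. For the unequal change 3 probe sets were called under each, against 6, and 3 to 7 with 1 array left out. With the replicate block, 5 members were called for P3 minus E18 (Junb was lost, limma adjusted p = 0.0652), 4 for P6 minus E18 and 4 for the unequal change.

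Among the members and Elk4, the sign turned for differences that were not called and for Elk4 (called at -1.47), which was 0.12 for P3 minus E18 with the mean of its probe sets. Quantile normalization turned Egr1 to 0.36 at P3 against E18, to -0.29 at P6 against P3 and to 0.073 at P6 against E18, and its unequal change to -0.65. With the hybridization covariate it was 0.074 at P3 and 0.084 at P6 against E18, and its unequal change was -0.063. The 18S covariate gave Egr1 0.058 at P3 against E18, -0.0093 at P6 against P3, 0.049 at P6 against E18 and -0.067 for the unequal change. Leaving out 1 array gave Egr1 ranges of -0.21 to 0.013, -0.093 to 0.15, -0.19 to 0.051 and -0.096 to 0.35 in the same order. For P6 minus P3, Egr3 was 0.042 with the mean of its probe sets and -0.56 to 0.16 with 1 array left out, and Ier2 spanned -0.34 to 1.20. Egr2 probe set 1427682_a_at was 0.062 with quantile normalization, 0.011 with the hybridization covariate, 0.015 with the 18S covariate and -0.19 to 0.16 with 1 array left out. Arc was 0.11 for P6 minus E18 with the 18S covariate. With 1 array left out, the unequal change of Junb spanned -0.23 to 0.11 and that of Npas4 -0.94 to 0.18. The cause of these shifts was not tested.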
